A study of Homo sapiens with 12 samples.

Results

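The genes studied here were 9 feedback inhibitors of the RAS-ERK pathway, namely the MAPK phosphatases *DUSP4*, *DUSP5* and *DUSP6*, the Sprouty genes *SPRY1*, *SPRY2* and *SPRY4*, the Sprouty-related genes *SPRED1* and *SPRED2*, and the ERK-induced gene *PHLDA1*. They were chosen by name, out of 19975 protein-coding genes of the GENCODE annotation on hg38. Acetylation of histone H3 at lysine 27 (H3K27ac), found at promoters and enhancers in use, was profiled by CUT&RUN, in which an antibody brings a nuclease to marked chromatin and the released fragments are sequenced. The cells were HCT116, a human colorectal carcinoma line, in bulk culture. The 6 H3K27ac libraries comprised 2 of untreated cells, 2 of cells given 1 µM cobimetinib, an inhibitor of the kinase MEK, and 2 of cells given 100 ng/mL TNFα, an inflammatory cytokine, both for 24 h. Nothing in the labels states that replicates came from separate cultures, so p-values measure only the spread between these libraries, which may be technical, and all results rest on this 1 line. The 6 IgG libraries named in the labels are not analysed here, so no background level stands beside these values. In bulk chromatin, fewer cells with the mark and less mark per cell cannot be told apart.

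ERK signalling switches on its own inhibitors. Dual-specificity phosphatases remove the activating phosphates from MAP kinases: DUSP6 acts on ERK in the cytoplasm, DUSP5 on ERK in the nucleus, and DUSP4 on ERK and other MAP kinases in the nucleus. Sprouty and SPRED proteins act further up, between growth factor receptors, RAS and RAF, and SPRED proteins bring the RAS inhibitor neurofibromin to the membrane. *PHLDA1* encodes a pleckstrin homology-like protein and is a commonly used readout of MEK inhibition. Their transcription responds to ERK through factors that include the ETS family, which binds DNA around a GGAA core, and AP1, a dimer of FOS and JUN proteins.

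The values are the authors' peak scores, which are known to rise with depth, and each list was therefore ranked on its own, with the highest score at rank 1. A small rank number is a strong peak, and in what follows a peak that "ranked higher" had the smaller number. A promoter peak lay within 1 kb of any transcript start of a gene, and a distal peak lay between 1 and 50 kb from all of them. Merging the 20000 highest peaks of each list gave 38598 regions, of which 37 belonged to the 9 genes. Of these, 12 were promoter regions and 25 were distal, and none of the distal regions lay within 1 kb of another protein-coding gene's start. *SPRY4* and *SPRED2* had 7 regions each, *PHLDA1* had 6, *DUSP4* and *DUSP5* had 5 each, and *DUSP6* had 3. *SPRED1* had 2, both of them promoter regions, and *SPRY1* and *SPRY2* had a promoter region only.

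The following sequences belong to the regions on which the results turn. They are given 5′ to 3′ on the strand of the gene, with hg38 positions, and capitals mark matches on either strand to 3 short words. The AP1 word searched for was TGACTCA, with its reverse complement counted as well. The word used for the ETS family was CCGGAA, likewise read on both strands. The cyclic AMP response element (CRE) was searched for as TGACGTCA, and none of the 3 words contains another. The first stretch is the 250 bases upstream of an upstream *SPRY4* start, chr5:142326456-142326705 on the minus strand, which holds none of these words. The next pair surround the AP1 words of the *SPRY4* distal region at 15.4 kb, at chr5:142342413-142342499 and chr5:142342887-142342973. The others surround AP1 words in distal regions of *PHLDA1* (chr12:76020842-76020928) and *DUSP5* (chr10:110531271-110531357, plus strand) and in an internal promoter of *SPRED2* (chr2:65366738-65366824). The last is the 250 bases upstream of the main *PHLDA1* start (chr12:76031777-76032026, from RefSeq, GRCh38.p14), which holds 1 ETS word.
SPRY4 upstream start: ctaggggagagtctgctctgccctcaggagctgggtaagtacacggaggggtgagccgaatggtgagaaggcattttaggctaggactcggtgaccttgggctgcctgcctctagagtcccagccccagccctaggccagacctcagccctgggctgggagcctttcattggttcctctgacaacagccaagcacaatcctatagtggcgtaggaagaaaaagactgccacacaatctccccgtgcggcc
SPRY4 at 15.4 kb, first word: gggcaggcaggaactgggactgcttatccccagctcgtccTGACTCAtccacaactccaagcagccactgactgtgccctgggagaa
SPRY4 at 15.4 kb, second word: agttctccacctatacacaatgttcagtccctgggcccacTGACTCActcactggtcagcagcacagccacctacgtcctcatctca
PHLDA1 at 10.0 kb: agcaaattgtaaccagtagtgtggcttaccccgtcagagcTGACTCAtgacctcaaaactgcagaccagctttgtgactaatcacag
DUSP5 at 26.2 kb: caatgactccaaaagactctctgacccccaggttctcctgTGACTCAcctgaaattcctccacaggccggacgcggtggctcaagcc
SPRED2 internal promoter: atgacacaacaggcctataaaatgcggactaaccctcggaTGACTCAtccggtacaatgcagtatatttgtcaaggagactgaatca
PHLDA1 promoter: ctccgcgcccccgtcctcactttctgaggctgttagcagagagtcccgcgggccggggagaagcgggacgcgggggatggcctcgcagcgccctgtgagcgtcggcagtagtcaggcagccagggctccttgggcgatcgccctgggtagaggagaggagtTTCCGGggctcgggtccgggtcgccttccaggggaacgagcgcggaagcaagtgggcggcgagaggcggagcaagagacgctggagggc

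The AP1 word was in 12 of the 37 regions (32.4%), against 32.3% of all 38598 regions, and regions of a like width (within 10% of each) held it in 40.1% of cases on average. The ETS word was in 13 of the 37 (35.1%), against 22.7% of all regions and 27.4% of those of like width. The CRE word was in 1 (2.7%), against 2.0% and 2.4%. In the 250 bases upstream of the start, 7 of the 9 genes were matched in the RefSeq table: *SPRY2* and *PHLDA1* each held 1 ETS word, none held an AP1 or CRE word, and over all 35116 promoters the shares were 14.5% for ETS, 4.2% for AP1 and 1.6% for CRE. The AP1 words printed for *PHLDA1*, *DUSP5* and the *SPRED2* internal promoter lay under a peak in all 6 lists. Those of the *SPRY4* region lay under a peak in 4 and 5 lists. The *DUSP5* region holds another AP1 word, not printed, which lay under a peak in 4 lists. These matches describe the letters and are not evidence of binding.

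The lists held between 69813 and 124771 peaks, with read depth unknown. Untreated replicate 2, whose peak names mark it as merged after resequencing, stood apart: the median width of its 20000 highest peaks was 380 bp, against 922 to 1265.5 bp in the other 5. Its part in the comparisons with untreated cells was not tested beyond leaving it out. At the cut-off score of 44, untreated replicate 2 had 7102 tied peaks, against 332 to 533 at the cut-offs of the other 5. Ties were taken in file order, so which of them counted among the 20000 highest was arbitrary. Of 7 epithelial marker genes, 3 to 7 had a promoter peak among the 20000 highest, with *KRT8* and *CLDN4* present in all 6 lists and *KRT19* in 1.

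The feedback inhibitors had promoter peaks in every condition. All 9 genes had a promoter peak in 5 of the 6 lists, where 61.6% to 65.6% of all protein-coding genes had one. In untreated replicate 2, 7 of the 9 did (all genes, 58.9%), and the list had no promoter peak for *SPRY1* or *SPRED1*. The *DUSP4* peak in that list was near the floor, with a score of 21 where the lowest was 20. Between 4 and 7 of the 9 were among the 20000 highest peaks, a count for which the share of all genes was not computed. *SPRY4* ranked highest of the 9 in both untreated and both TNFα libraries, whereas *DUSP4* ranked highest in both cobimetinib libraries.

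**Figure D1:**
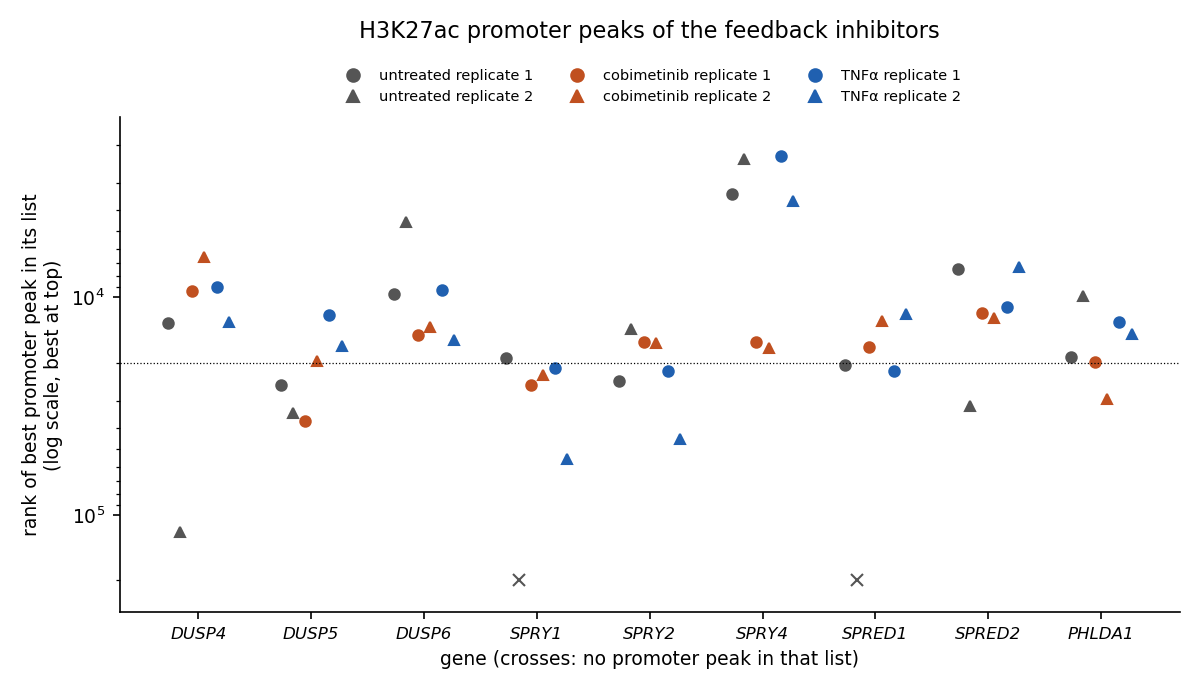
Rank of the best promoter peak of each gene in its own list (log scale, strongest at the top), with 1 point per library, circles for replicate 1 and triangles for replicate 2. The dotted line marks rank 20000 and crosses mark lists without a promoter peak. Both cobimetinib points of *SPRY4* lie below all of its untreated and TNFα points.

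*SPRY4*, an inhibitor of RAS activation by receptor kinases, differed most between conditions. Its strongest promoter peak ranked 3373.5 and 2320.5 in the untreated lists, 16100 and 17073.5 after cobimetinib, and 2262 and 3641 after TNFα. Both cobimetinib libraries ranked below the other 4, and the untreated and TNFα libraries overlapped. The width followed the same order, with 1335 and 762 bp in untreated cells, 569 and 528 bp after cobimetinib, and 1257 and 2180 bp after TNFα.

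This peak lay over a start 1434 bp upstream of the main *SPRY4* start (chr5, position 142325021, minus strand). The transcript that begins there has no defined coding sequence, and the first printed sequence lies directly upstream of that start. Untreated replicate 2 had no peak within 1 kb of the main start, so the order against both untreated libraries rests on this upstream start. Counted over protein-coding transcripts only, cobimetinib lay below untreated at 1 promoter of the feedback inhibitors in place of 2. Peaks of all 6 libraries shared a stretch of 487 bp at chr5:142326292-142326778, so the site remained acetylated after cobimetinib. The flanks differed as well as the rank. Within the region (chr5:142325952-142328697), peaks covered 2367 and 1367 bp in untreated cells and 2541 and 2553 bp after TNFα, but 569 and 528 bp after cobimetinib. A flanking peak farther upstream was present in both untreated and both TNFα libraries and in neither cobimetinib library.

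Another promoter region, at chr5:142323695-142324834, had the opposite order. It lies downstream of the main GENCODE start and holds the RefSeq start of *SPRY4* at position 142324247. No untreated or TNFα list held a peak there, and both cobimetinib lists did, at ranks 20022.5 and 19035 among the 38598 regions. The region entered the set only through the peak of cobimetinib replicate 2, at list rank 19677.5. An order that favours cobimetinib was thus partly fixed by how regions were picked, and the differences for this region are not independent support for it. The limma difference between cobimetinib and untreated, on normal scores of the ranks, was 1.10 ± 0.41 (SE) for this region and -1.25 ± 0.42 for the upstream region (adjusted p = 0.537 and 0.536). Between TNFα and cobimetinib the differences were -1.05 ± 0.41 and 1.23 ± 0.42 (limma, adjusted p = 0.352 and 0.289). Neither region passed the adjusted threshold of 0.05 in any contrast.

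**Figure D2:**
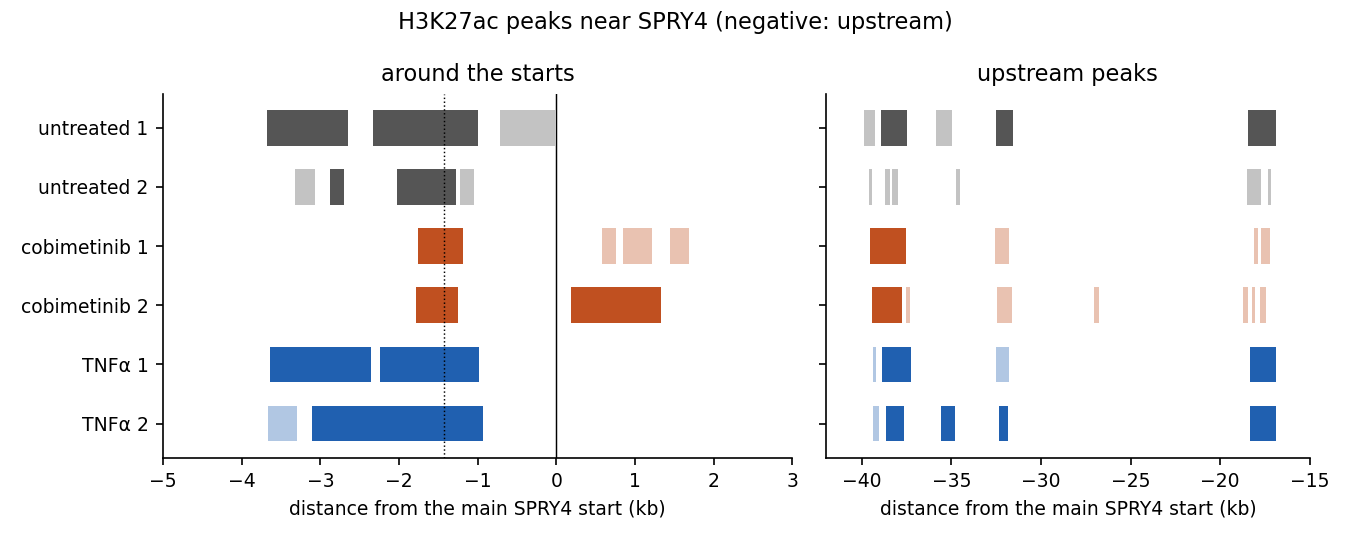
Peaks near *SPRY4* in each library by distance from the main start (kb, negative is upstream), around the starts (left) and at the upstream distal regions (right). Dark bars are among the 20000 highest peaks of their list and pale bars are not. The solid line is the main start and the dotted line the upstream start, over which the cobimetinib peaks are 569 and 528 bp wide.

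Among the distal regions of *SPRY4*, the one 15.4 kb from the nearest start (chr5:142341887-142343494, upstream of the gene and outside protein-coding genes) ranked highest after TNFα. Its region ranks were 15608.5 and 25092.5 in untreated cells, 23801.5 and 23209 after cobimetinib, and 9038 and 5310 after TNFα. Both TNFα libraries ranked above the other 4, by 0.98 ± 0.43 over untreated and 1.18 ± 0.43 over cobimetinib (limma, adjusted p = 0.619 and 0.327). It was the only one of the 37 regions that was among the 20000 highest peaks in both TNFα libraries and neither cobimetinib library (all regions, 5.41%). The strongest distal *SPRY4* region, at 35.8 kb, did not follow this order. Its region ranks were 6327 and 20041.5, then 5554 and 4632.5 after cobimetinib and 3060.5 and 7303.5 after TNFα, and both cobimetinib libraries ranked above both untreated libraries while TNFα overlapped both groups.

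The other Sprouty genes did not share the *SPRY4* pattern. *SPRY2*, like *SPRY4* a receptor tyrosine kinase antagonist, had list ranks of 24358 and 13968 in untreated cells, 16100 and 16227 after cobimetinib, and 21929 and 44788.5 after TNFα. Both TNFα libraries ranked below both cobimetinib libraries, and untreated overlapped both groups. Its promoter region (chr13:80339861-80341748) was the only one of the 37 among the 20000 highest in both cobimetinib and neither TNFα list (all regions, 4.39%), yet the limma difference of TNFα from cobimetinib was -0.46 ± 0.43 (adjusted p = 0.818).

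*SPRY1* ranked 19124.5 in untreated replicate 1, was without a promoter peak in replicate 2, and ranked 25227 and 22772 after cobimetinib and 21200.5 and 55390.5 after TNFα. The groups overlapped in every comparison. *SPRY1* and *SPRY2* were the 2 genes without any of the 20000 highest peaks at 1 to 50 kb in any library. A *SPRY1* peak of untreated replicate 2, 21078 bp from the nearest start, had the tied cut-off score of 44 and was left out by file order.

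The DUSP genes each had their own pattern. *DUSP6*, the cytoplasmic ERK phosphatase, had list ranks of 9652 and 4526.5 in untreated cells, 14953 and 13770 after cobimetinib, and 9302 and 15725.5 after TNFα. Both cobimetinib libraries ranked below both untreated libraries, and TNFα replicate 2 ranked lower still. When genes were ranked among all protein-coding genes instead, *DUSP6* stood at 6194 and 2346.5, at 7968 and 7739, and at 5323.5 and 7710. On that scale TNFα lay narrowly above cobimetinib, whereas the list ranks overlapped. The promoter region (chr12:89351873-89354672) differed by -0.59 ± 0.43 between cobimetinib and untreated (limma, adjusted p = 0.537). The strongest distal region, at 23.1 kb, was weak, at region ranks of 24906.5 and 22979.5 in untreated cells and 14052 in cobimetinib replicate 1, with no peak in the other 3 lists.

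*DUSP5*, the nuclear ERK phosphatase, had list ranks of 25467 and 34024.5 in untreated cells, 37131.5 and 19677.5 after cobimetinib, and 12059 and 16716.5 after TNFα. Both TNFα libraries ranked above the other 4 in the lists. By gene rank TNFα lay above both cobimetinib libraries and overlapped untreated, with values of 11340 and 7846, then 11530.5 and 9543 after cobimetinib, and 6648.5 and 8074 after TNFα. The promoter region was the only one of the 37 among the 20000 highest in both TNFα and neither untreated list (all regions, 3.56%). It entered the set through treated lists only, so an order above untreated was partly fixed by how regions were picked. The summed width of *DUSP5* distal peaks among the 20000 highest was 4156 and 843 bp in untreated cells, 2284 and 2044 bp after cobimetinib, and 4280 and 3278 bp after TNFα.

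Most of that distal signal came from a region beyond the 3′ end of *DUSP5*, 26.2 kb from the nearest start (chr10:110528963-110531892). Region ranks there were 1271 and 15060.5, then 8684.5 and 6417 after cobimetinib and 2586 and 522.5 after TNFα. Both TNFα libraries ranked above both cobimetinib libraries (0.99 ± 0.52, limma, adjusted p = 0.521), and the untreated libraries spanned the range. A weaker region at 8.8 kb had a peak in both TNFα lists, at region ranks 24959.5 and 18596.5, and in no other list. The TNFα differences there were 0.95 ± 0.42 from untreated and 0.90 ± 0.42 from cobimetinib (limma, adjusted p = 0.619 and 0.438). This region entered the set only through the peak of TNFα replicate 2, at list rank 19263. An order that favours TNFα was thus partly fixed by how regions were picked, and these differences are not independent support for it.

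*SPRED1* and *SPRED2* encode the RAS inhibitors that recruit neurofibromin. *SPRED1* ranked 20457.5 in untreated replicate 1, was without a promoter peak in replicate 2, and ranked 16988 and 12872 after cobimetinib and 21929 and 11921 after TNFα. By gene rank, both treated groups lay above untreated, at 10454.5 and no peak, against 8629.5 and 7353.5 after cobimetinib and 9932.5 and 6110.5 after TNFα, although the TNFα list ranks overlapped untreated replicate 1. Its promoter region (chr15:38251720-38252850) was among the 20000 highest in both cobimetinib lists and neither untreated list, with a difference of 0.99 ± 0.47 (limma, adjusted p = 0.537). The region entered the set through treated lists only, so an order above untreated was partly fixed by how regions were picked.

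*SPRED2* had list ranks of 7442.5 and 31498 in untreated cells, 11909 and 12488.5 after cobimetinib, and 11148 and 7251 after TNFα. Both TNFα libraries ranked above both cobimetinib libraries, and untreated overlapped both. These best peaks lay at more than 1 start, either the main start or an internal start near chr2:65366174-65367686. Inside the gene, a region 13.6 kb from the nearest start (chr2:65319662-65321178) was among the strongest distal sites. Its region ranks were 5906.5 and 1868 in untreated cells, 7171.5 and 9302.5 after cobimetinib, and 1484 and 1354 after TNFα. The TNFα libraries ranked above the other 4 and the cobimetinib libraries below the other 4. The difference of TNFα from cobimetinib was 0.99 ± 0.43 (limma, adjusted p = 0.401). A further intragenic region at 4.7 kb ranked 3137.5 and 5650.5, then 10957 and 8142, and 8058.5 and 4551.5 after TNFα, with cobimetinib below both untreated libraries.

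*PHLDA1* had promoter ranks of 18813.5 and 9918.5 in untreated cells, 19810.5 and 29261.5 after cobimetinib, and 12979.5 and 14770.5 after TNFα. Both cobimetinib libraries ranked below the other 4 in the lists, and by gene rank they overlapped untreated (10030 and 4544.5, against 9335.5 and 10992.5) but not TNFα (7085 and 7353.5). A stronger peak lay beyond the 3′ end of the gene, 10.0 kb from the nearest start (chr12:76019494-76021623), and it had the best mean rank of the 25 distal regions. Region ranks there were 2564 and 973 in untreated cells, 5768 and 10037 after cobimetinib, and 1510 and 662.5 after TNFα. Both cobimetinib libraries ranked below the other 4. The differences were -0.89 ± 0.43 from untreated and, for TNFα from cobimetinib, 1.10 ± 0.43 (limma, adjusted p = 0.537 and 0.354). The width covered by peaks did not follow this order, at 1725 and 1058 bp, then 1286 and 1945 bp, and 1431 and 1713 bp after TNFα.

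The neighbouring region of *PHLDA1* at 12.3 kb (chr12:76018170-76019291) had the opposite order. It ranked 25354 and 25092.5 in untreated cells, 10791.5 and 11516.5 after cobimetinib, and 20394.5 and 17279 after TNFα, with no overlap among the 3 groups. It was among the 20000 highest in both cobimetinib and neither untreated list, and the difference was 0.95 ± 0.41 (limma, adjusted p = 0.537). A region at 48.0 kb ranked 26583 and 33464 (no peak in replicate 2), then 20022.5 and 12438.5, and 16595 and 20040.5 after TNFα, with a difference of 1.01 ± 0.44 between cobimetinib and untreated (limma, adjusted p = 0.537). Both regions entered the set through treated lists and no untreated list. An order above untreated was thus partly fixed by how regions were picked, and these differences are not independent support for it.

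**Figure D3:**
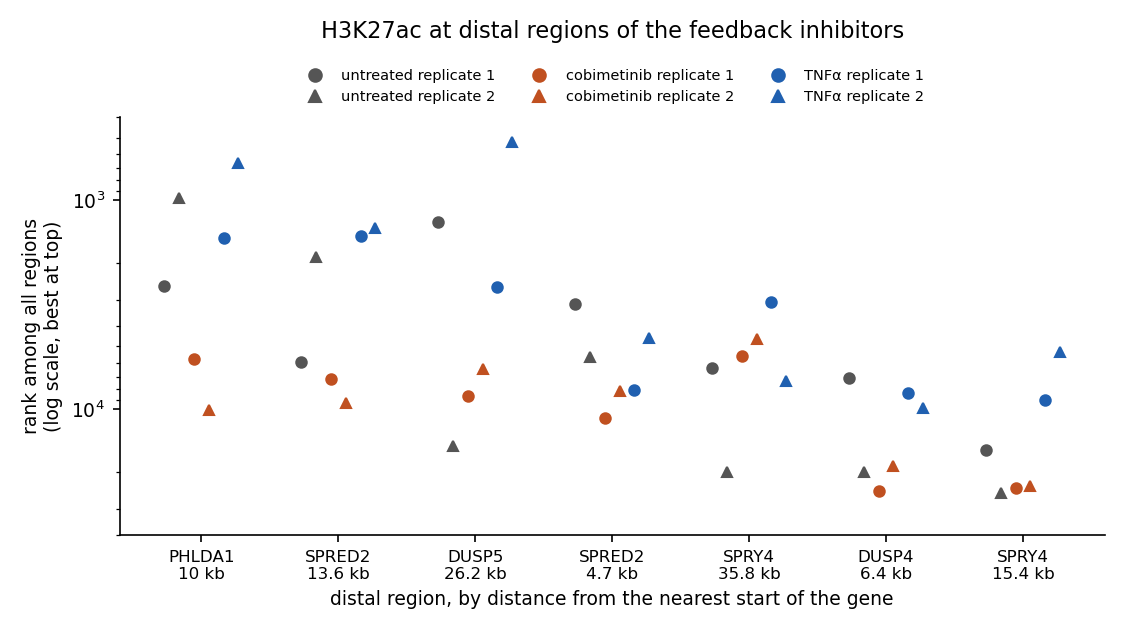
Rank among the 38598 regions (log scale, strongest at the top) of the 7 distal regions with the best mean rank, with 1 point per library. At the *PHLDA1* region at 10.0 kb the cobimetinib libraries ranked 5768 and 10037, below the other 4 libraries, whereas at the *SPRY4* region at 35.8 kb they ranked 5554 and 4632.5, above both untreated libraries.

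*DUSP4*, the remaining phosphatase, ranked 13120 and 120423.5 in untreated cells, 9343 and 6551 after cobimetinib, and 8987.5 and 13009 after TNFα. Both treated groups ranked above both untreated libraries, and the separation from untreated replicate 1 was small for TNFα. The best peak was 1415 and 255 bp wide in untreated cells, 1725 and 3298 bp after cobimetinib, and 670 and 703 bp after TNFα. The best cobimetinib peaks lay inside the gene, reaching 3427 bp downstream of the main start in replicate 1 and 3235 bp in replicate 2. Untreated replicate 2 had no peak in that stretch, but it was not bare in the remaining lists. Untreated replicate 1 had peaks there at list ranks 23043.5 and 35737, TNFα replicate 1 at 31693 and 43557, and the best peak of TNFα replicate 2 lay 1126 to 1828 bp downstream of the main start. The promoter region differed by 0.93 ± 0.46 between cobimetinib and untreated (limma, adjusted p = 0.537). An intragenic region at 6.4 kb ranked 7069 and 20041.5, then 24530.5 and 18609.5, and 8357 and 9837.5 after TNFα. There both TNFα libraries ranked above both cobimetinib libraries (0.87 ± 0.45, limma, adjusted p = 0.514).

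Counted over the genes, cobimetinib against untreated cells gave no common direction. By gene rank, both cobimetinib libraries lay below both untreated libraries at 2 of 9 promoters (*DUSP6* and *SPRY4*; all genes, 17.5%) and above them at 2 of 9 (*DUSP4* and *SPRED1*; all genes, 17.7%). Against 1 untreated library, non-overlap is more common: the counts were 4 and 3 with untreated replicate 2 left out (all genes, 32.3% and 33.4%) and 5 and 4 with replicate 1 left out (41.3% and 35.2%). For the gene rank of the distal width, 0 of 7 genes with coverage were lower (all genes, 16.2%) and 0 were higher (all genes, 17.7%). These counts were 3 and 4 without untreated replicate 2 (29.3% and 47.3%) and 1 and 3 without replicate 1 (46.5% and 35.2%). The region test called 0 of 37 regions lower and 0 higher in limma, as it did for all regions (0% and 0%). At an unadjusted p under 0.05, limma had 4 of 37 regions, 3 of them higher after cobimetinib, against 8.99% of all regions. Those 3 entered the set through treated lists and no untreated list, so their direction was partly fixed by how regions were picked. Both cobimetinib and neither untreated list had 2 of 37 regions among the 20000 highest (all regions, 3.92%), and the reverse held for 0 (all regions, 1.6%). The median difference over the 37 regions was 0.03, equal to that over all regions, and at the promoters it was -0.11 against -0.02 for all genes.

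TNFα against untreated cells gave 2 of 9 promoters higher (*DUSP4* and *SPRED1*; all genes, 14.8%) and 0 lower (all genes, 16.1%). The counts were 5 higher and 0 lower without untreated replicate 2 (all genes, 39.3% and 31.8%), but 4 and 4 without replicate 1 (34.1% and 40.7%). The gene rank of the distal width was higher at 1 of 7 genes (*DUSP5*; all genes, 17.4%) and lower at 0 (all genes, 12.7%). Without untreated replicate 2 this was 5 and 0 (46.3% and 29.3%), and without replicate 1 it was 3 and 2 (37.1% and 42%). In limma, 0 of 37 regions were called in either direction (all regions, 0% and 0%), and 2 of 37 had an unadjusted p under 0.05, both higher after TNFα (all regions, 6.24%). Of these, the *DUSP5* region at 8.8 kb entered the set only through a TNFα list, so its direction was partly fixed by how regions were picked. One direction of exclusive presence held for 1 of 37 regions, in both TNFα and neither untreated list (all regions, 3.56%), and the other for 0 (all regions, 1%). The median difference over the 37 regions was 0.26, against 0.02 over all regions. More of the 37 lacked a peak in untreated replicate 2 than in replicate 1, and regions of the same gene are not independent.

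TNFα against cobimetinib separated the treatments at 6 of these 9 promoters, a count that uses no untreated library. Both TNFα libraries ranked above both cobimetinib libraries at 5 of 9 (*DUSP5*, *DUSP6*, *SPRY4*, *SPRED2* and *PHLDA1*), where 21.7% of all genes did, and below at 1 (*SPRY2*; all genes, 19.4%). By rank in the whole list, the count was 4 higher, and within 500 bp of a start it was also 4. By width of the same peaks it was 2 higher and 3 lower, so the order held for score and not for width. The gene rank of the distal width was higher at 2 of 7 genes (*DUSP5* and *SPRY4*; all genes, 21.9%) and lower at 0 (all genes, 21.2%). In limma, 0 of 37 regions were called higher or lower, against 0.0155% and 0.00259% of all regions, and the smallest adjusted p was 0.289. The limma fit takes its spread from all 6 libraries. Fitted on only the 4 libraries of this contrast, it called 0 of the 37 and 0 of all regions, in place of 7. At an unadjusted p under 0.05 there were 6 of 37, 5 of them higher after TNFα (all regions, 11.3%). The *DUSP5* region at 8.8 kb and the *SPRY4* region at 15.4 kb entered the set through no cobimetinib list. The *SPRY4* region downstream of the main start entered through no TNFα list, so these directions were partly fixed by how regions were picked. The median difference was 0.19 over the 37 regions and 0.00 over all regions.

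**Figure D4:**
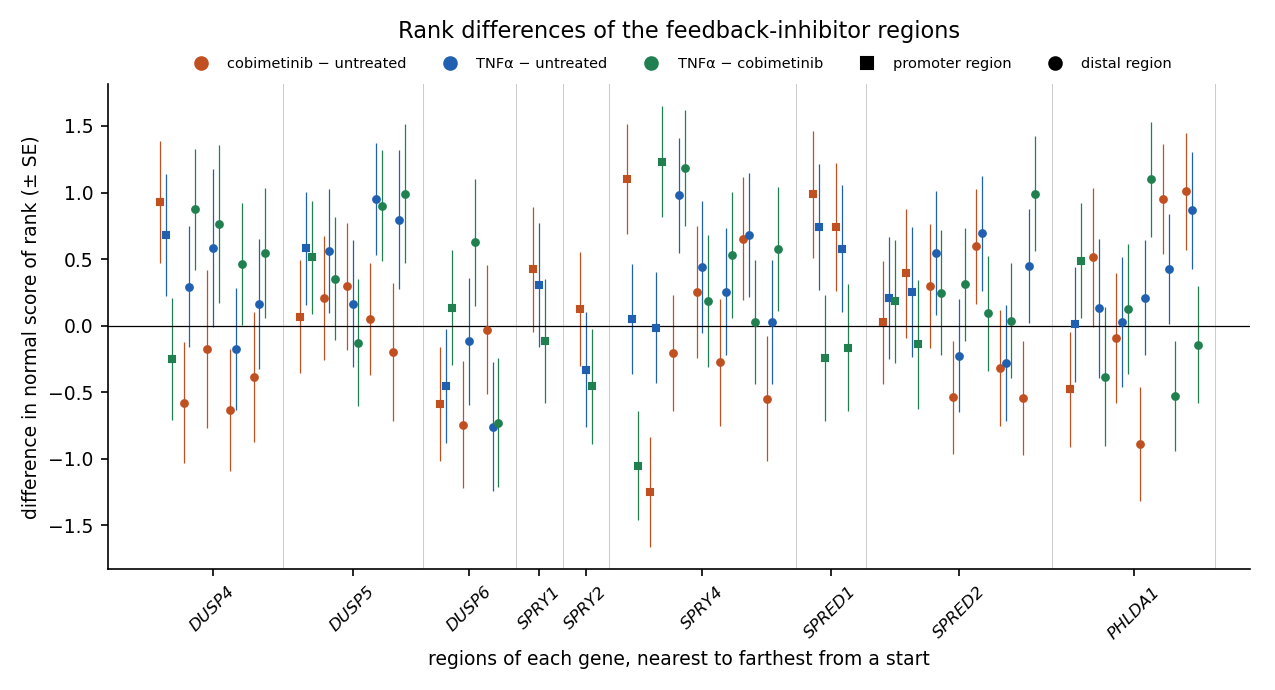
Differences in the normal score of the region rank (± SE from limma) for the 37 regions, grouped by gene and ordered by distance from a start, with squares for promoter regions and circles for distal regions. The extremes are at *SPRY4*, where the upstream promoter region differed by -1.25 between cobimetinib and untreated and by 1.23 between TNFα and cobimetinib.

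The other genes of the pathway were described by counts. At promoters, these were 8 other MAPK phosphatase and Sprouty genes, 18 genes of the ERK cascade and 13 other ERK-induced genes. TNFα lay above cobimetinib at 1, 6 and 2 of them (all genes, 21.7%) and below at 4, 4 and 2 (all genes, 19.4%). Cobimetinib lay below untreated at 1, 1 and 2 (all genes, 17.5%) and above at 3, 4 and 4 (all genes, 17.7%). TNFα lay above untreated at 1, 3 and 4 (all genes, 14.8%) and below at 3, 3 and 1 (all genes, 16.1%). Distal width was compared at 9, 18 and 14 genes. There TNFα lay above cobimetinib at 2, 4 and 5 (all genes, 21.9%) and below at 4, 5 and 2 (all genes, 21.2%). Cobimetinib lay below untreated at 1, 3 and 2 (all genes, 16.2%) and above at 4, 5 and 3 (all genes, 17.7%). TNFα lay above untreated at 1, 3 and 4 (all genes, 17.4%) and below at 0, 1 and 2 (all genes, 12.7%). In limma, 0 of their 31, 84 and 85 regions were called in any of the 3 contrasts.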

How the data were processed

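H3K27ac CUT&RUN peak lists of 6 HCT116 libraries were used, in 3 groups of 2 taken from the labels. Per the submitters' notes and the study's methods, reads were aligned to hg38 with BWA 0.7.15 and peaks were called in each library with MACS2 2.1.1, without IgG. The deposited score of a peak is the authors' whole number from that caller, at least 20 in every list. It rises with depth, and read counts are unknown here, so scores were ranked within each list and no interval or floor on counts can be given.

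Following the study's rule, the 20000 highest peaks of each list were pooled and merged within 100 bp. The best score of any deposited peak overlapping a region by at least 1 bp was ranked over regions, with ties sharing the mean rank and regions without a peak sharing the lowest. Normal scores of these ranks (positive for strong peaks) were compared with limma 3.58.1 (R 4.3.3) over all 6 libraries with treatment as the only term, two-sided, with Benjamini-Hochberg adjustment over all 38598 regions and a threshold of 0.05. The residual degrees of freedom were 3 before moderation. The method was also run on simulated data, with a spread taken from the cobimetinib and TNFα libraries only. That run does not cover the wider spread of the untreated libraries, and no conclusion is drawn from it.

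Promoter ranks used the best score within 1 kb of any GENCODE transcript start, ranked over 19975 protein-coding genes, and distal width used the 20000 highest peaks at 1 to 50 kb. Groups of 2 were called higher or lower where they did not overlap, which has no test: 2 against 2 cannot give a permutation p under 0.05. Background shares cover the 14920 genes with a promoter peak and the 16817 genes with distal coverage in at least 1 list. All members are named. Of the distal regions, the rule named the best mean rank of each gene and regions among the 20000 highest in both libraries of one group and neither of another. The regions at 8.8, 48.0 and 4.7 kb, which fall outside it, the flanks of SPRY4 and the motif words were chosen after values were seen. The members and lists were chosen with earlier results of these data known. Sequences came from hg38 and RefSeq. Alternatives changed the number of peaks, distances, scale, weights, samples, pairing and each library in turn. The check of other-lineage markers is not reported here.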

Additional observations from a re-analysis of the deposited data

How the results depend on the processing

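The limits are that depth is unknown, each group had 2 libraries, and the score is a caller's value. Leaving out 1 library at a time leaves a lone library that limma assumes to vary like the other groups. Across 18 counts, 124 recomputed values stayed within 1.5 times and 56 moved. For the 12 region differences with an unadjusted p under 0.05, no recomputed value reversed, 133 stayed on the same side of the adjusted threshold and 12 passed it. Settings that change only the weights, the block or libraries outside a contrast return the same difference, so they could not reverse. The 12 differences were also picked from these data by their p-value, so these counts are not support for them. The cause was not tested in any case.

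For promoters, cobimetinib below untreated (2 of 9) became 1 by width of the best peak, 1 with protein-coding transcripts only, and 3 to 5 leaving out 1 library. Cobimetinib above untreated (2) became 2 to 4 leaving out 1 library. TNFα below untreated (0) became 1 by width and 0 to 4 leaving out 1 library, and TNFα above untreated (2) became 1 by width and 3 to 5. TNFα below cobimetinib (1) became 3 by width and 1 to 3, and TNFα above cobimetinib (5) became 2 by width and 5 to 6 leaving out 1 library.

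For distal width, cobimetinib below untreated (0 of 7) became 2 with the 10000 highest peaks, 3 with 40000, 3 with all deposited peaks, 1 within 100 kb, 4 by best distal score and 0 to 3 leaving out 1 library. Cobimetinib above untreated (0) became 2 with 10000, 1 with 40000, 1 within 100 kb, 1 by best score and 1 to 4. TNFα below untreated (0) became 1 with 40000, 1 with all peaks, 1 by best score and 0 to 2. TNFα above untreated (1) became 2 with 10000, 3 with 40000, 3 with all peaks, 2 by best score and 1 to 5. TNFα below cobimetinib (0) became 0 to 2 leaving out 1 library, and TNFα above cobimetinib (2) became 6 with 10000, 4 by best score and 2 to 5.

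For region calls, leaving out untreated replicate 1 gave 2 lower and 7 higher of 37 for cobimetinib against untreated (range 0 to 2 and 0 to 7) and 5 higher for TNFα against untreated (0 to 5), while 11753 and 10729 of all regions were called. TNFα against cobimetinib gave 1 higher on log2 ranks (the upstream SPRY4 region, 2.49), and 7 higher and 1 lower with array weights. Those weights were 0.254 for the untreated libraries against 1.86 and 2.11, and 5327 of all regions were called.

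Same-numbered libraries showed little shared deviation (correlations 0.0643, 0.085 and 0.0442). With 2 libraries per group this cannot show whether they were made together, and the numbers in the labels do not settle it. With a replicate block, 0 of 37 regions were called in each contrast, and the calls over all regions were 2, 12 and 185 against 0, 0 and 7 without the block.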
